A study of Mus musculus with 4 samples.

Results

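Prrx1, Prrx2, Meox1, Meox2, Tbx2, Tbx4, Tbx5, Foxf1, Tcf21 and Osr1 are transcription factors of lung and limb mesenchyme, and their signals were followed on 4 mouse arrays. These 10 genes are a list of names drawn up with earlier results of these data known, and each was matched through its Entrez gene ID to 1 probe set among the 23185 probe sets with a gene symbol. Of the 10, 4 are homeobox genes (the Prrx and Meox pairs), 3 are T-box genes and 1 is a forkhead gene. Tcf21 is a basic helix-loop-helix gene and Osr1 a zinc finger gene, so neither belongs to those families.

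The populations were Day0, club cells of adult mouse lung that had not been cultured. Next came 3w+Dox, called Club-iPL cells in the labels, which had spent 3 weeks in medium with doxycycline, an antibiotic used to turn on engineered genes. The 3w+Dox+2w-Dox population, Dox-free cells in this text, spent 2 more weeks in medium without it, and the iPS population consisted of pluripotent stem cells made from club cells. Each population was measured on 1 array, and the labels used here do not describe strain, transgenes, sorting or feeder cells. All signals below are on the log2 scale of RMA, a method that normalizes the arrays to each other. Because every population has a single array, differences are given without p-values and the small number of arrays is what limits their precision. A call of higher or lower needs a difference of 2 log2 units (4-fold) or more, with the brighter signal no lower than 6.67, the median over the whole table.

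Mesenchyme forms the connective tissue, smooth muscle and vessel wall of the lung and the skeleton of the limb, and its identity is set by a small number of DNA-binding proteins. In the embryonic lung, Tbx4 and Tbx5 act in mesenchyme upstream of the growth factor Fgf10, and Foxf1 is switched on there by hedgehog protein sent from the epithelium. Prrx1 and Prrx2 are paired-related homeobox factors of limb and craniofacial mesenchyme that partly replace each other, and Prrx1 is also active in fibroblasts of adult tissues.

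The marker lists gave the context of the arrays. In Day0 cells, all 12 lung epithelial markers were at or above 6.67, against 3 of 16 fibroblast markers. On the iPS array 9 of 10 pluripotency markers were at or above 6.67, with Dppa5a at 5.30, and 0 of 10 were on each of the other 3 arrays. Array medians lay between 6.60 and 6.74.

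RefSeq promoter windows (build GRCm38.p6, 250 bases before to 50 after 1 annotated start) were held for 5 of the 10 genes, and those of Prrx1, Prrx2 and Meox2 are shown because these were the 3 members with the largest differences between 3w+Dox and Day0. They lie on the minus strand at chr1:163313601-163313900 (Prrx1) and on the plus strand at chr2:30845117-30845416 (Prrx2) and chr12:37108290-37108589 (Meox2). Capitals mark TAATTA in Prrx1, GGGCGG on either strand in Prrx2 and Meox2, and TATAAA, read on the other strand, in Meox2.
Prrx1: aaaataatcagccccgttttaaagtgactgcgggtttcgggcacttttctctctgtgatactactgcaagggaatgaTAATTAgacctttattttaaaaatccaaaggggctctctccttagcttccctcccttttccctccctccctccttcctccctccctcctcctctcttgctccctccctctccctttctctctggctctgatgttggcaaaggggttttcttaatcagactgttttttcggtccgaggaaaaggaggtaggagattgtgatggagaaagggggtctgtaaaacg
Prrx2: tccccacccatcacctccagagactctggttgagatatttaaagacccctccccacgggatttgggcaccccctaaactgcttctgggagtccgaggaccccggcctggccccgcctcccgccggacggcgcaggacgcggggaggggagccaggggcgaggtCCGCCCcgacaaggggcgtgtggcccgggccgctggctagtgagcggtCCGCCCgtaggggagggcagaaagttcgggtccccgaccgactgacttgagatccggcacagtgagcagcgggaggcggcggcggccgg
Meox2: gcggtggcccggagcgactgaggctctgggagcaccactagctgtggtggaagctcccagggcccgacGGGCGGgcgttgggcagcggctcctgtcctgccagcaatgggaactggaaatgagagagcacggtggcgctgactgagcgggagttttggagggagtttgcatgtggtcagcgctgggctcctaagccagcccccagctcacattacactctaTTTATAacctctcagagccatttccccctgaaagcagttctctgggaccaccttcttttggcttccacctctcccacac
The Prrx pair differed in base composition. The Prrx1 window had 6 CpG dinucleotides and 47.7% G and C, whereas the Prrx2 window had 28 CpG and 70.3% G and C. The Meox2 window lay between them with 12 CpG, and those of Tbx4 and Tcf21 had 8 each. Over all 32851 windows the median was 7 CpG, and 43.6% of windows had fewer than Prrx1, 60.4% fewer than Meox2 and 85.8% fewer than Prrx2.

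Letters typical of 6 motifs were searched on both strands of the 5 windows. TAATTA, a homeodomain core, was in the Prrx1 window and in 5.29% of all windows. TATAAA, the TATA box, was in the Meox2 and Tbx4 windows and in 13.6% of all. GGGCGG, the GC box, was in the Prrx2, Meox2 and Tbx4 windows and in 35.7% of all. CAGCTG, an E-box, was in the Tbx4 window and in 16.3% of all. AGGTGT, the core of a T-box site, and TGTTTAC, a forkhead site, were in 0 of the 5 windows and in 13.7% and 3.65% of all. No 2 of the motif matches in the printed windows overlapped. These windows were not compared between populations.

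The homeobox genes were far brighter after 3 weeks with doxycycline. Prrx1 (Entrez gene 18933) read 5.77 in Day0 cells, 12.11 in 3w+Dox cells, 12.27 in Dox-free cells and 10.06 in iPS cells. Its signal in 3w+Dox cells was 80.8-fold that in Day0 cells, a difference of 6.34. The Day0 array alone was below 6.67, and the iPS array lay between Day0 and both club cell cultures. These are bulk samples, so more cells of a type and more RNA per cell cannot be told apart.

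Prrx2 (Entrez gene 20204), the paralog of Prrx1, read 6.18 in Day0 cells, 10.92 in 3w+Dox cells, 10.89 in Dox-free cells and 8.68 in iPS cells. The order of the arrays was that of Prrx1 except that Dox-free and 3w+Dox cells were within 0.03 of each other. It was 26.7-fold brighter in 3w+Dox cells than in Day0 cells (4.74). In profile over the 4 arrays, each centred on its own mean, the pair was 1.50 log2 units apart (Euclidean distance). Prrx2 was nearer to Osr1 (1.42).

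Meox1 and Meox2 are mesenchyme homeobox genes of the somites, and Meox2, also known as Gax, restrains growth of vascular smooth muscle. Meox1 (Entrez gene 17285) read 5.42, 8.41, 9.01 and 5.62 in Day0, 3w+Dox, Dox-free and iPS cells, in that order. Meox2 (Entrez gene 17286) read 4.87, 9.09, 9.87 and 5.10 on the same arrays. Both were at or above 6.67 on the 2 arrays of cultured club cells and below it on the others, and their iPS signals were 0.20 (Meox1) and 0.22 (Meox2) above Day0. In 3w+Dox cells, Meox1 was 7.95-fold and Meox2 18.6-fold brighter than in Day0 cells, by 2.99 and 4.21 log2 units, and Day0 signals below 6.67 make these folds inexact, as they do for Prrx1, Prrx2, Tbx5 and Foxf1.

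The T-box genes differed less between these populations than Prrx1, Prrx2 and Meox2. Tbx5 (Entrez gene 21388), which is needed for the first lung buds and for forelimb and heart, read 5.53 in Day0 cells, 8.10 in 3w+Dox cells, 8.48 in Dox-free cells and 5.59 in iPS cells. Of these 4 arrays, the 2 of cultured club cells were at or above 6.67, and the 3w+Dox signal was 5.94-fold that in Day0 cells (2.57). Tbx4 (Entrez gene 21387), a factor of lung mesenchyme and hindlimb, read 6.84 in Day0, 8.32 in 3w+Dox, 8.67 in Dox-free and 7.48 in iPS cells. It kept the order of Tbx5 over a narrower range, and its 2.78-fold difference between 3w+Dox and Day0 (1.47) was under the 4-fold threshold.

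Tbx2 (Entrez gene 21385), a repressor that in embryonic lung mesenchyme keeps cells dividing, read 6.56 in Day0 cells, 6.64 in 3w+Dox cells, 7.24 in Dox-free cells and 6.76 in iPS cells. Its 3w+Dox and Day0 signals differed by 0.08, a sign that turned to -0.01 after a second quantile normalization, and its whole range was 0.68. Tbx2 and Tbx4 are neighbours on chromosome 11 with no other measured gene between them in the RefSeq table. Their profiles were 1.11 log2 units apart, while Tbx2 was nearer to Tcf21 (0.54) and Tbx4 to Foxf1 (0.55).

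Foxf1 (Entrez gene 15227), which guides lung mesenchyme and its vessels, read 6.14 in Day0 cells, 8.24 in 3w+Dox cells, 8.37 in Dox-free cells and 6.76 in iPS cells. Both cultured club cell arrays stood above the others, and the difference between 3w+Dox and Day0 was 4.28-fold (2.10), just past the threshold. Its profile was closest, among the members, to that of Tbx4 (0.55 log2 units).

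Tcf21 (Entrez gene 21412), a factor of lung and kidney mesenchyme found in lipid-storing fibroblasts, read 5.00 in Day0 cells, 5.58 in 3w+Dox cells, 6.00 in Dox-free cells and 5.00 in iPS cells. All 4 signals were below 6.67, so this gene could not be counted as higher or lower in any comparison. Osr1 (Entrez gene 23967), a factor of lateral and intermediate mesoderm, read 8.16 in Day0, 12.06 in 3w+Dox, 11.91 in Dox-free and 8.65 in iPS cells. It was 15.0-fold brighter in 3w+Dox cells than in Day0 cells (3.90), and its Day0 signal was the only one among the 7 genes so counted to be at or above 6.67.

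**Figure D1:**
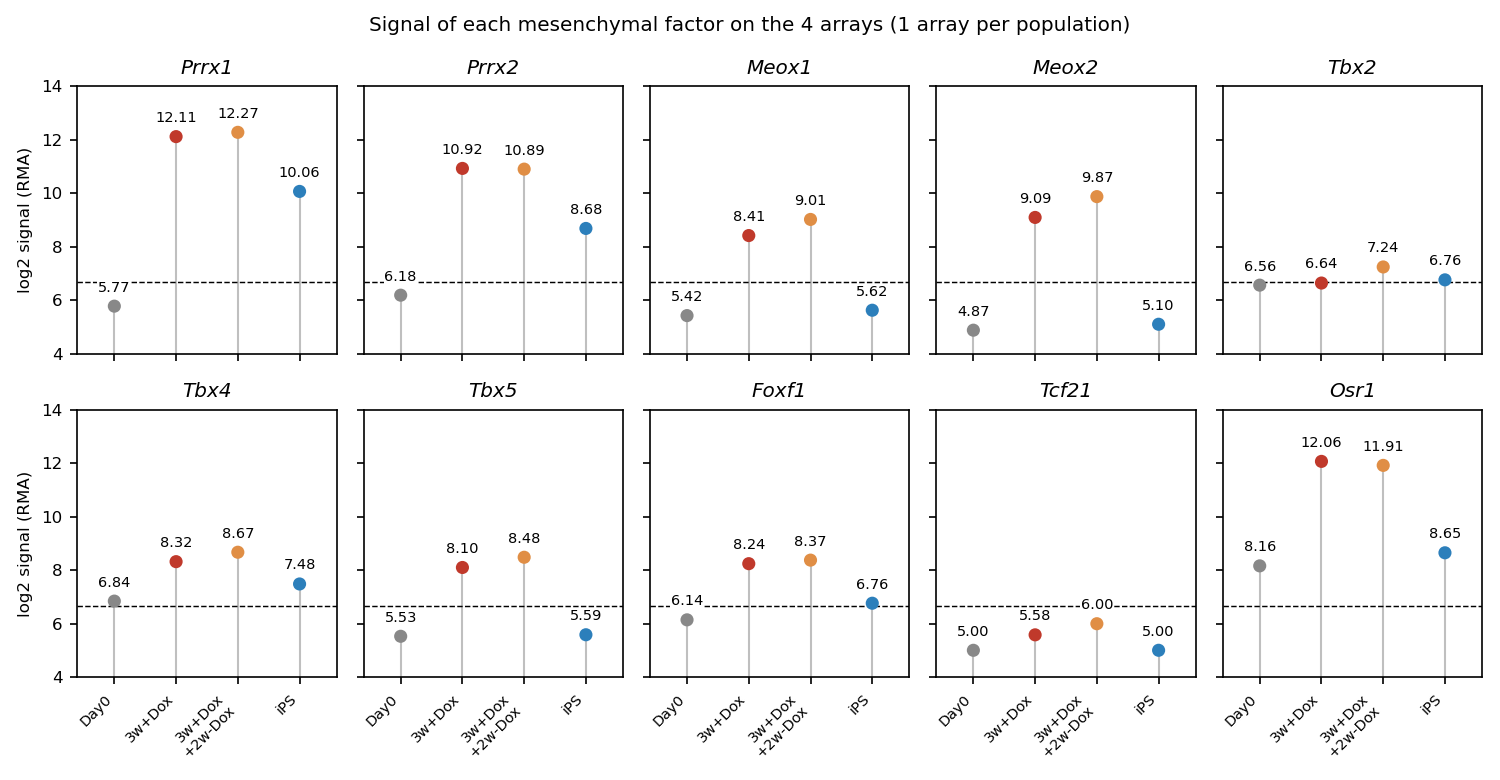
Log2 signal (vertical axis, RMA) of each of the 10 genes on the Day0, 3w+Dox, 3w+Dox+2w-Dox and iPS arrays (horizontal axis), 1 point per array, with a dashed line at 6.67, the median over the whole table. Prrx1 and Prrx2 stand at 10.06 and 8.68 on the iPS array, whereas Meox1, Meox2 and Tbx5 are at 5.62, 5.10 and 5.59 there.

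Counted together, 7 of the 10 genes were at least 4-fold higher in 3w+Dox cells than in Day0 cells and 0 were at least 4-fold lower. Among all 23185 named genes, 4.31% were higher and 2.88% lower. The median difference of the 10 genes was 2.78, against -0.09 over all named genes. All 10 differences were positive, from 0.08 (Tbx2) to 6.34 (Prrx1), as were 9663 of the 23185 over all named genes. The 3 genes not counted were Tbx2, Tbx4 and Tcf21. With an 8-fold threshold 4 of the 10 were counted, namely Prrx1, Prrx2, Meox2 and Osr1, beside 2.18% of all named genes.

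Markers of other cell types differed between the same 2 arrays. Of 16 fibroblast markers, 15 were at least 4-fold higher in 3w+Dox cells than in Day0 cells, and their mean signal was 10.91 in 3w+Dox cells and 6.10 in Day0 cells. Smooth muscle markers were higher in 7 of 10, with means of 9.80 in 3w+Dox and 6.11 in Day0 cells, and pericyte markers in 3 of 8, with means of 7.65 in 3w+Dox and 6.21 in Day0 cells. Leukocyte markers were higher in 9 of 11, with means of 9.09 in 3w+Dox and 6.20 in Day0 cells. Mesothelial markers were higher in 2 of 8, Msln and Upk1b. The mesothelial factor Wt1 read 6.92 in 3w+Dox cells and 6.60 in Day0 cells, and Bnc1 read 6.52 and 5.17. Of 12 endothelial markers 0 were higher and 1, Kdr, was lower, with means of 5.86 in 3w+Dox and 6.21 in Day0 cells. In 3w+Dox cells 2 of the 12 were at or above 6.67, Tek (7.93) and Esam (7.39), while Pecam1, Cdh5 and Tie1 read 5.56, 5.88 and 5.03. Tek stood 1.80 and Erg 1.16 above Day0. Lung epithelial markers were higher in 0 of 12 and lower in 1, Foxj1, with means of 11.63 in 3w+Dox and 12.16 in Day0 cells. All 12 were at or above 6.67 in 3w+Dox cells and in Dox-free cells. The part of these cell types in the signals of the 10 genes was not tested.

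In Dox-free cells the 10 genes lay near their 3w+Dox signals, as did most named genes. 0 of the 10 were at least 4-fold or 2-fold apart between Dox-free and 3w+Dox cells, where 0.302% of all named genes were at least 4-fold higher and 0.470% lower. At 2-fold, with the same filter, 1.45% of all named genes were higher and 1.88% lower, so 0 of 10 was near these shares. Differences were positive for 8 of the 10 and for 12450 of the 23185 named genes, with medians of 0.37 and 0.03. The largest were those of Meox2 (0.78), Meox1 (0.60) and Tbx2 (0.60), followed by Tcf21 (0.42), Tbx5 (0.38) and Tbx4 (0.35). Prrx1 and Foxf1 differed by 0.16 and 0.13, Prrx2 by -0.03 and Osr1 by -0.15. The sign for Prrx2 turned to 0.01 after a second quantile normalization and to 0.02 after centring on brighter genes.

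The marker lists were compared in the same way. Fibroblast markers differed by a median of 0.09 between Dox-free and 3w+Dox cells and leukocyte markers by 0.10, with 0 of either list at least 4-fold apart, and smooth muscle markers by -0.35. Of 8 mesothelial markers 2 were at least 4-fold lower in Dox-free than in 3w+Dox cells, Upk1b (-3.66) and Msln (-2.37), as was 1 of 12 endothelial markers, Tek (-2.35). Against Day0, Dox-free cells were at least 4-fold higher in 7 of the 10 genes and lower in 0, where 4.05% of all named genes were higher and 1.85% lower. The 7 were those counted in 3w+Dox cells, and both comparisons share the Day0 array. Meox2 was 31.8-fold brighter in Dox-free cells than in Day0 cells, Meox1 12.1-fold and Tbx5 7.74-fold, while Prrx1 was 90.3-fold, Prrx2 26.2-fold, Osr1 13.5-fold and Foxf1 4.70-fold brighter.

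**Figure D2:**
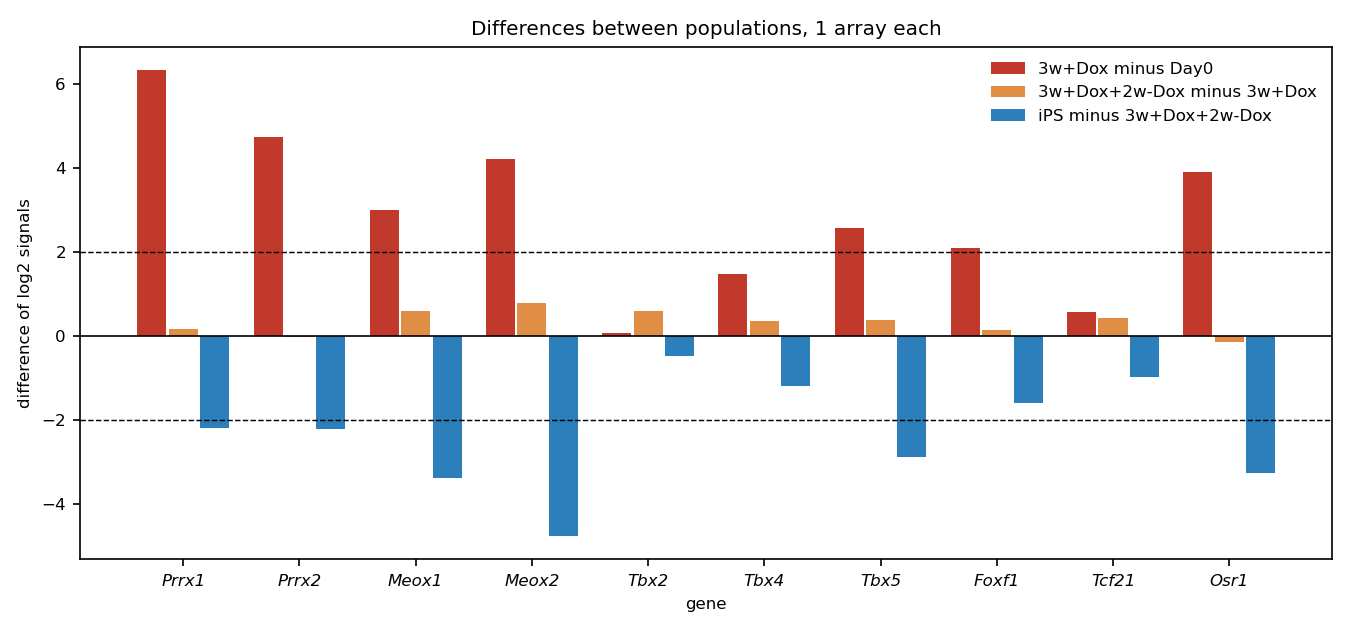
Difference of log2 signals (vertical axis) for each of the 10 genes (horizontal axis) in 3 comparisons, shown as bars, with dashed lines at 2 and -2. Bars of Dox-free against 3w+Dox cells lie between -0.15 and 0.78, and those of iPS against Dox-free cells between -4.77 and -0.48.

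The iPS array separated the Prrx pair from the other members. Prrx1 was 19.5-fold brighter in iPS cells than in Day0 cells (4.29) and Prrx2 5.63-fold (2.49). The other 8 genes lay between 0.00 (Tcf21) and 0.64 (Tbx4) above Day0, with Foxf1 at 0.62 and Osr1 at 0.49. Of the 10, 2 were counted as higher in iPS cells than in Day0 cells and 0 as lower, where 4.89% of all named genes were higher and 5.90% lower. The median of the 10 was 0.36, against 0.00 over all named genes.

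The Prrx signals in iPS cells were below those of the cultured club cells. Prrx1 was 4.13-fold dimmer in iPS cells than in 3w+Dox cells (-2.05), a difference that became -1.999 and was no longer counted after centring on brighter genes. Prrx2 was 4.73-fold dimmer (-2.24). Meox2, Osr1, Meox1 and Tbx5 differed by -3.99, -3.42, -2.79 and -2.51, Foxf1 by -1.48, Tbx4 by -0.83, Tcf21 by -0.58 and Tbx2 by 0.12. In all, 6 of 10 were counted as lower in iPS than in 3w+Dox cells and 0 as higher, beside 5.16% and 3.57% of all named genes.

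Set against Dox-free cells, the same 6 genes were counted as lower in iPS cells and 0 as higher, beside 5.05% and 3.83% of all named genes. Meox2 was 27.3-fold dimmer in iPS cells (-4.77), Meox1 10.5-fold (-3.39), Osr1 9.62-fold (-3.27) and Tbx5 7.44-fold (-2.90). Prrx1 and Prrx2 differed by -2.21 and -2.22. Foxf1 (-1.61), Tbx4 (-1.19), Tcf21 (-0.99) and Tbx2 (-0.48) were under the threshold. All 10 differences were negative, as were 11270 of the 23185 over all named genes, with medians of -2.21 and 0.02. The comparisons with Day0, with 3w+Dox and with Dox-free cells share the iPS array.

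Fibroblast markers were also bright on the iPS array. Of 16, 11 were at least 4-fold higher in iPS cells than in Day0 cells, with a mean signal of 8.62 in iPS cells and 6.10 in Day0 cells and a median difference of 3.02. Col1a1 read 9.76 in iPS cells and 6.73 in Day0 cells, and Thy1 read 9.73 in iPS cells and 5.57 in Day0 cells. Smooth muscle markers were higher in 5 of 10, with means of 8.12 in iPS cells and 6.11 in Day0 cells. Leukocyte markers were higher in 0 of 11, with means of 6.65 in iPS cells and 6.20 in Day0 cells. Between iPS and Dox-free cells the median difference was -2.45 for fibroblast markers, -1.48 for smooth muscle markers and -2.38 for leukocyte markers. The part of such cells in the iPS signals of Prrx1 and Prrx2 was not tested.

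**Figure D3:**
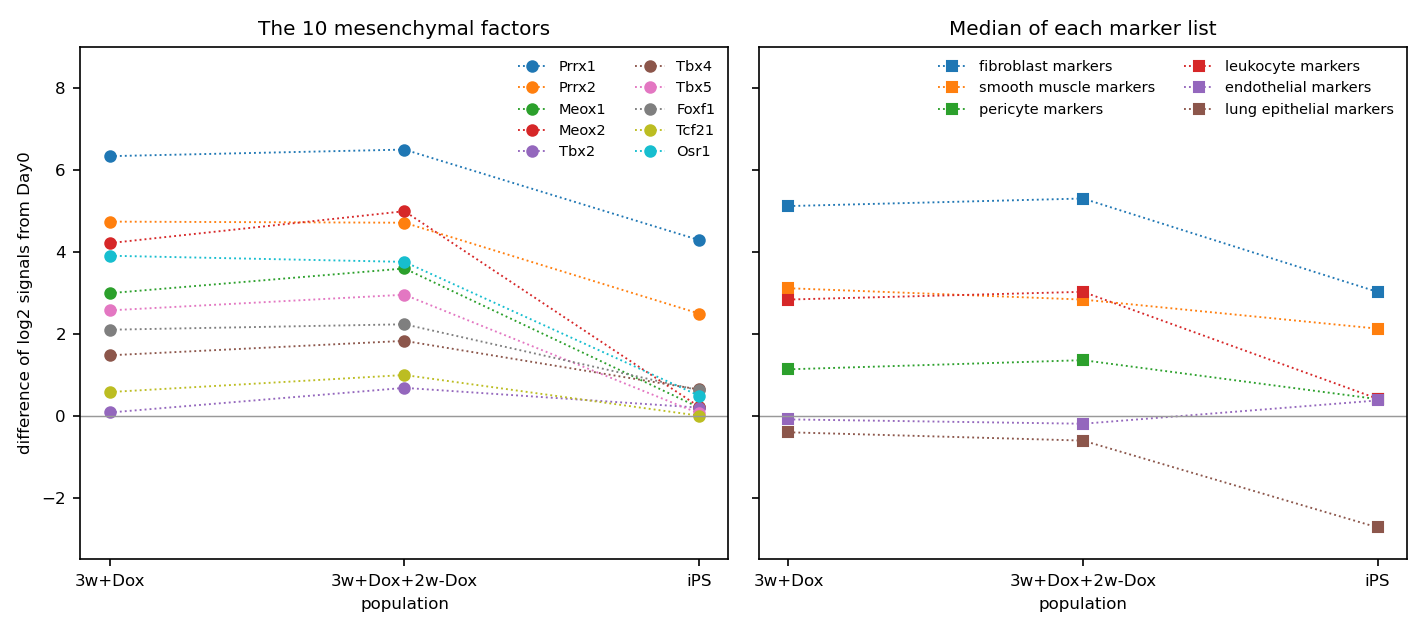
Difference of log2 signals from Day0 (vertical axis) in 3w+Dox, 3w+Dox+2w-Dox and iPS cells (horizontal axis). The left panel has 1 symbol per gene and the right panel the median of each marker list, and dotted lines only join the values of 1 gene or list. On the iPS array Prrx1 (4.29) and Prrx2 (2.49) stand apart from the other 8 genes, which lie at or below 0.64, and the fibroblast marker median is 3.02.

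Genes whose profile over the 4 arrays was most like that of each member were sought among 13277 named genes, by Euclidean distance between profiles centred on their own mean. With only 4 arrays the measure describes these arrays and no more. For Prrx1 the closest were Thy1, a surface protein of fibroblasts (0.26 log2 units), Penk, the enkephalin precursor (0.29), Gask1b (0.31), Colec12, a scavenger receptor (0.37), and Fstl1, a secreted glycoprotein (0.38). For Prrx2 they were Cav1, which encodes caveolin (0.16), Flnc, a filamin (0.20), Gria3, a glutamate receptor subunit (0.24), Tagln, an actin-binding protein of smooth muscle (0.28), and Dkk3 (0.31).

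Meox2 had other companions. Its closest profiles were those of C1qc, a chain of complement C1q (0.25), Slc5a7, a choline transporter (0.29), and Mrc1, Trem2 and Fcer1g, receptors or adaptors of macrophages (0.36, 0.37 and 0.43). C1qc read 5.34, 9.49, 10.05 and 5.30 in Day0, 3w+Dox, Dox-free and iPS cells, in that order. Leukocyte markers were higher in 9 of 11 in 3w+Dox cells. The part of leukocytes in the signal of Meox2, or of any other member, was not tested. For Meox1 the closest were Hoxc8, a homeobox gene of the trunk (0.16), Adgrg2 (0.18), Hspb7 (0.18), Gng11 (0.20) and Gldn (0.25). For Tbx5 they were Akap5 (0.13), Plxnc1 (0.16), Mef2c, a MADS-box transcription factor (0.16), Dock10 (0.19) and Nxpe5 (0.20).

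For Foxf1 the list held Dock2, a leukocyte signalling protein (0.05), P4ha1, a collagen prolyl hydroxylase (0.06), Elk3, an ETS factor (0.07), Gpr35 (0.10) and Gli3, a transcription factor of the hedgehog pathway (0.11). For Osr1 it held Avpr1a, a vasopressin receptor (0.08), Col5a2, a collagen chain (0.17), Fat4, a large cadherin (0.19), Adamtsl3 (0.22) and Tgfb3, a TGF-beta ligand (0.25). Among the members themselves the closest pair was Meox1 and Tbx5 (0.49) and the farthest Prrx1 and Tbx2 (4.94). Tbx2, Tbx4 and Tcf21 spanned under 2 log2 units and were left out of this search.

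Genes that lie beside the members on the chromosomes were held to the same threshold. The closest measured genes on either side, read from RefSeq, came to 18 without the members. Of these, 2 were at least 4-fold higher in 3w+Dox cells than in Day0 cells and 1 lower, beside 4.31% and 2.88% of all named genes, with a median of -0.02. The higher ones were Ptges beside Prrx2, a prostaglandin E synthase (2.64), and Eya4 beside Tcf21, a transcriptional coactivator (3.98). Agmo beside Meox2, an ether lipid enzyme, stood at -4.46, whereas Meox2 stood at 4.21. Fendrr, the long noncoding RNA next to Foxf1, read 5.39, 5.89, 5.78 and 5.65 from Day0 to iPS, below 6.67 on all arrays.

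Relatives of the members in the T-box and forkhead families were counted next. Of 13 other T-box genes measured, 3 were at least 4-fold higher in 3w+Dox cells than in Day0 cells and 0 lower, with a median of -0.02. Tbx15, a factor of skin and skeletal mesenchyme, was higher by 5.56, Tbx18, a factor of the epicardium and smooth muscle progenitors, by 2.67, and Tbx3, the closest relative of Tbx2, by 2.08. Tbx3 read 6.58, 8.66, 8.57 and 11.05 from Day0 to iPS and so was brightest in iPS cells, by 2.49 over Dox-free cells, whereas Tbx2 differed there by -0.48. Of 42 other forkhead genes, 0 were higher and 1, Foxj1, was lower, with a median of -0.14. Foxf2, the paralog of Foxf1, read 5.59, 6.58, 6.72 and 5.89 from Day0 to iPS, with the 2 cultured club cell arrays the brightest. Only its Dox-free signal was at or above 6.67, and it was counted as higher or lower in no comparison.

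Limb and skeletal homeobox genes beyond the members were higher in 3w+Dox cells than in Day0 cells in 5 of 25 and lower in 0, with a median of 0.63. Emx2, a homeobox gene of the urogenital tract and limb girdle, stood at 3.36, Shox2, a limb factor related to Prrx1, at 2.83, and En1, of the ventral limb ectoderm and of some dermal fibroblasts, at 2.58. Shox2 read 5.65, 8.49, 8.52 and 6.33 from Day0 to iPS, and its iPS signal was below 6.67. Mesenchymal bHLH, zinc finger and related factors were higher in 9 of 22 and lower in 0, with a median of 1.46. They were led by Ebf1, a factor of B cells and of stromal cells (5.93), and by Snai2 and Zeb2, repressors of epithelial genes (5.65 and 3.48). In iPS cells Ebf1, Snai2 and Tbx15, like Prrx1 and Prrx2, were at least 4-fold higher than in Day0 cells, by 3.13, 2.42 and 2.46. Osr2, the paralog of Osr1, read 5.39, 8.17, 8.81 and 5.86 from Day0 to iPS, with iPS cells 0.47 above Day0 cells.

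Partners and signals of the members were read in the same way. Of 10 TALE homeodomain genes, whose products bind DNA beside other homeodomain proteins, Meis2 (2.31) and Meis1 (2.09) were at least 4-fold higher in 3w+Dox cells than in Day0 cells and 0 were lower. In the hedgehog pathway, upstream of Foxf1 in lung, 4 of 14 were higher and 1 lower. The lower one was the ligand Shh, which read 6.26 in 3w+Dox cells and 10.18 in Day0 cells. The higher ones were the transcription factor Gli2 (3.07), the co-receptor Gas1 (2.89), Boc (2.69) and Hhip (2.41). Hhip read 5.08 in Day0 cells and 7.50 in 3w+Dox cells. The other 9 were not counted, among them Gli1, at 5.60 in 3w+Dox and 5.77 in Day0 cells, and Ptch1, at 9.23 and 9.73. Of 20 mesenchyme signals, 9 were higher and 1, Bmp5, was lower, with the growth factor Fgf7 at 5.13, the BMP antagonist Grem1 at 4.99 and the Wnt enhancer Rspo3 at 4.52. Fgf10, which acts downstream of Tbx4 and Tbx5 in lung, read 5.36 in Day0 cells, 9.28 in 3w+Dox cells, 9.63 in Dox-free cells and 7.71 in iPS cells. Its iPS signal was above 6.67, as was that of Tbx4 (7.48), whereas that of Tbx5 was 5.59. Tbx4 was above 6.67 on all 4 arrays, though only just in Day0 cells (6.84), where Fgf10 read 5.36. The value 6.67 is a median and not a limit of detection. A link between Fgf10 and either T-box gene was not tested.

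**Figure D4:**
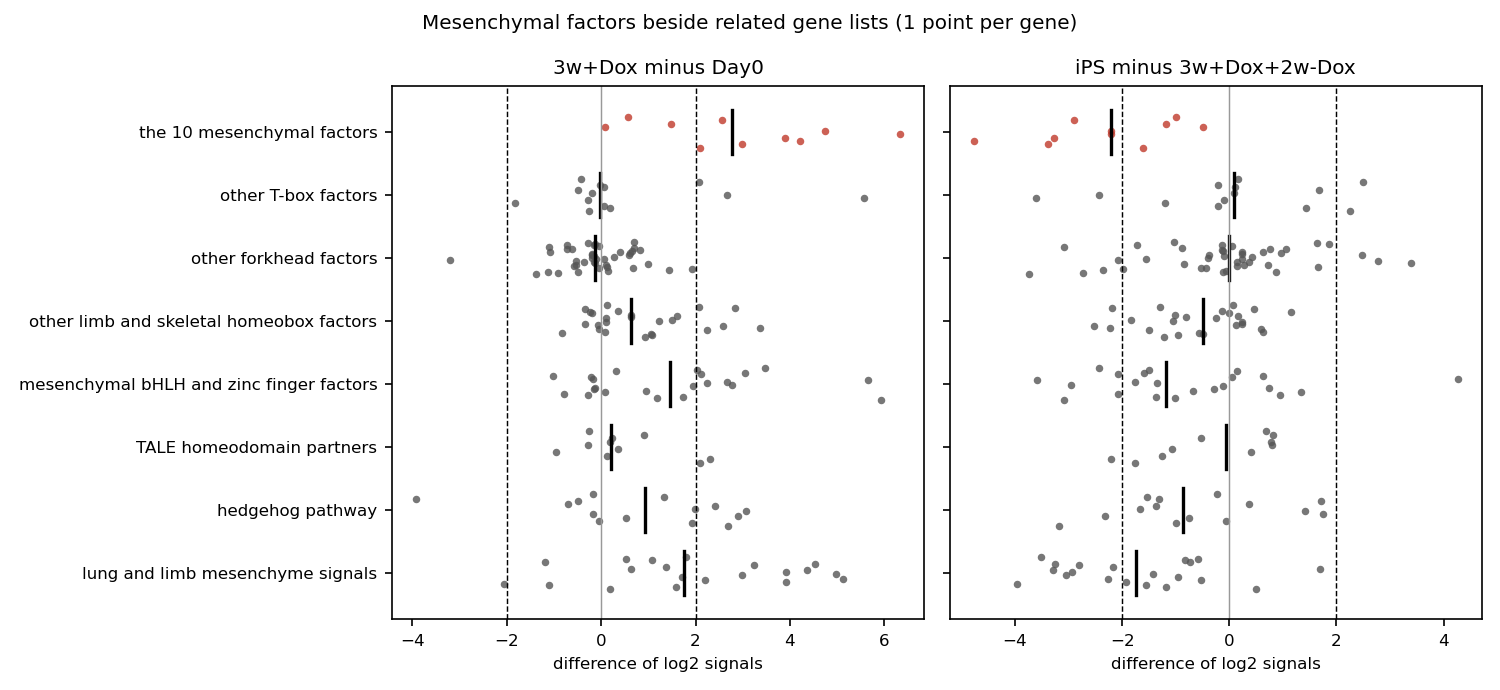
Difference of log2 signals (horizontal axis) for 3w+Dox minus Day0 (left panel) and iPS minus 3w+Dox+2w-Dox (right panel), 1 point per gene, in the 10 mesenchymal factors (top, red) and 7 related lists, with a black bar at each median and dashed lines at 2 and -2. The medians of the 10 factors are 2.78 and -2.21, and those of the other forkhead genes -0.14 and -0.01.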

How the data were processed

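Affymetrix arrays were used to measure RNA of 4 mouse cell populations, with 1 array for each, and groups were taken from the sample titles. The deposited log2 values were made by the authors with RMA in the affy package and R 3.0.2, per the submitters' processing notes. Their range, 1.70 to 13.85, lies on a log2 scale. RMA corrects background, quantile normalizes over arrays and summarises probe sets, so folds of dim genes are compressed and folds from dim signals are inexact. Build and probe set annotation version: not given in the sources used here. Of 25206 probe sets, 2021 without a symbol in the platform annotation were left out.

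Differences of log2 signals were computed in Python 3.11.15 with pandas 2.3.3 for 6 pairs of arrays, with no further normalization in the main results. Calls needed 2 log2 units and a brighter signal no lower than the table's median. The 10 genes, 17 other gene lists (263 genes, 252 measured) and the naming rule were chosen with earlier results of these data known. All 10 genes were named on every array, and from other lists up to 3 genes with the largest counted difference, plus Foxf2, Tbx3, Osr2 and Shox2. Fgf10, Fendrr, Gli1, Ptch1, Hhip and single marker genes outside that rule were chosen after their values were seen. The genes beside members and the motifs were added later.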

Additional observations from a re-analysis of the deposited data

How the results depend on the processing

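Counts of the 10 genes were recomputed for 6 comparisons in both directions under 7 alternatives, and 78 of 84 counts were within 1.5 times those reported. Counts reported as 0 stayed 0 in every alternative, and could not rise under a stricter threshold or filter. The 6 counts that moved further had all been reported as above 0. With an 8-fold threshold, 4 of the 10 genes were higher in 3w+Dox cells than in Day0 cells (2.18% of all named genes), 1 was higher in iPS cells than in Day0 cells (2.34%), 2 were lower in iPS than in 3w+Dox cells (1.84%) and 3 were lower in iPS than in Dox-free cells (1.72%). With the brighter signal required to reach the 75th percentile of all values (8.82), 4 were higher in 3w+Dox cells than in Day0 cells (2.89% of all named genes) and 1 was higher in iPS cells than in Day0 cells (3.54%). Fewer genes can pass either setting by construction. Of 180 differences of single genes under another scaling or a floor at the 25th percentile (5.07), 175 kept their side of the threshold without reversing sign. These include Tcf21 between iPS and Day0 cells, whose difference of 0.0006 became 0 with the floor. Prrx1 between iPS and 3w+Dox cells became -1.999 after centring on brighter genes, and in 4 cases a difference of at most 0.08 changed sign. Centring moved the median of all named genes to -0.12 between 3w+Dox and Day0, against -0.09 as reported. That median went from 0.03 to 0.07 between Dox-free and 3w+Dox cells, and from 0.06 to 0.11 between iPS and 3w+Dox cells. No array could be left out, since each population had 1. No paired analysis was possible because each group holds 1 array and no result comes from a test. Day0 signals below 6.67 limit the folds of Prrx1, Prrx2, Meox1, Meox2, Tbx5 and Foxf1, and Tcf21 could not be counted at all.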

Other observations

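Genes linked to the members by other roles were read on the same arrays. Of 7 CDK inhibitor genes, which slow the cell cycle and some of which Tbx2 is known to repress, Cdkn2b (2.81) and Cdkn1a (2.24) were at least 4-fold higher in 3w+Dox cells than in Day0 cells and 0 were lower. Cdkn2a read 6.85 in Day0 cells, 8.11 in 3w+Dox cells, 8.57 in Dox-free cells and 7.12 in iPS cells, and Tbx2 stayed between 6.56 and 7.24 on those arrays.

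Retinoic acid is a signal of embryonic mesenchyme that acts around Tbx5 and Osr1 in the foregut. Of 14 retinoid genes, 2 were at least 4-fold higher in 3w+Dox cells than in Day0 cells and 0 lower, namely the binding proteins Crabp1 (5.78) and Crabp2 (2.15). Crabp1 read 6.22 in Day0 cells, 12.00 in 3w+Dox cells, 12.87 in Dox-free cells and 12.56 in iPS cells, so its iPS signal lay between those of the cultured club cells, whereas that of Prrx1 lay below both. Aldh1a2, which makes retinoic acid in mesenchyme, read 5.54, 7.34, 8.65 and 6.24 on the same arrays, and Aldh1a1, an epithelial enzyme of the same kind, read 13.74, 12.91, 11.88 and 6.28. Between iPS and Dox-free cells 6 of the 14 were lower and 0 higher, beside 5.05% and 3.83% of all named genes. The lower ones were led by Aldh1a1 (-5.60), Dhrs3 (-3.43) and Rdh10 (-3.31).

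Pluripotency markers stood at least 4-fold higher in iPS than in Dox-free cells in 9 of 10, with Utf1 at 8.04, Tdgf1 at 7.45 and Nanog at 6.91. Tcf15, a somite factor of the same bHLH superfamily as Tcf21, read 5.67, 5.51, 5.40 and 9.67 from Day0 to iPS, and was brightest in iPS cells.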
